A study of Rattus norvegicus with 2 samples.

Results

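The genes described here are the cytochrome P450s (Cyp), the UDP-glucuronosyltransferases (Ugt1a, Ugt2a and Ugt2b) and the sulfotransferases (Sult), together with the P450 reductase Por and the receptors Ahr, Nr1i2 and Nr1i3. Their rule is by gene symbol and uses no measured value, although it was set with earlier results of these data known, and 81 of the 8898 genes that could be named on the array met the rule. These 81 genes were carried by 95 of 41009 probes and by 113 of 43379 array features. The GRCr8 gene table holds 148 genes of this kind, so the array probes that could be named covered part of the families.

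Whole blood RNA came from male rats, with 6 rats in each group. Their age of 7 weeks is given in the methods for the rats as housed and in the study's legend for the rats as dosed. They were thus older when the blood was drawn. The LO group received lavender oil (LO) at 5 mg/kg in 10% ethanol and the control group received the 10% ethanol diluent, 0 mg/kg LO, into the stomach once daily for 13 days, with dissection under ether. The blood was drawn 14 days after treatment by the labels and the methods text, but on day 14 by the study's legend. The strain is F334 in the growth protocol and in the methods, but Wistar in another label, and the labels name the heart and the portal vein as the source of blood where the methods name the heart. RNA of the 6 rats was pooled by group, so the data hold no spread between rats. The LO pool and the control pool were hybridised together on 2 arrays, with LO in Cy5 on array 1 and in Cy3 on array 2. The arrays shared 1 slide and 1 scan, form a technical dye swap, and were counted as 1 replicate. No test between conditions was therefore possible. With bulk RNA, a lower number of cells of a type and less RNA per cell cannot be told apart.

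P450 enzymes oxidise drugs, plant compounds, fatty acids and steroids, and the microsomal P450s receive their electrons from Por. UDP-glucuronosyltransferases and sulfotransferases then couple glucuronic acid or sulfate to the products, which makes them easier to excrete. Most xenobiotic enzymes of these families are known from the liver, where the receptors Ahr, Nr1i2 (the pregnane X receptor) and Nr1i3 (the constitutive androstane receptor) switch on many of them after exposure to foreign compounds. Other P450s have fixed tasks in making sterols, steroid hormones, bile acids and active vitamin D.

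In blood RNA, 22 of the 95 probes (23.2%) were rated well above background by the scanner software in all 4 channels, that is, for both pools on both arrays. Over all probes this share was 37.5%, and over the probes with a gene symbol it was 49.3%. A further 26 probes (27.4%) passed in 1 to 3 channels, against 21.4% of all probes. The remaining 47 probes (49.5%) passed in no channel, against 41.1% of all probes and 31% of the probes with a symbol. The share of members in all 4 channels was thus below that of the array, which is a description of these arrays with no test. By gene, 22 genes passed in all 4 channels through at least 1 probe, 23 reached 1 to 3 channels and 36 passed in none.

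**Figure D1:**
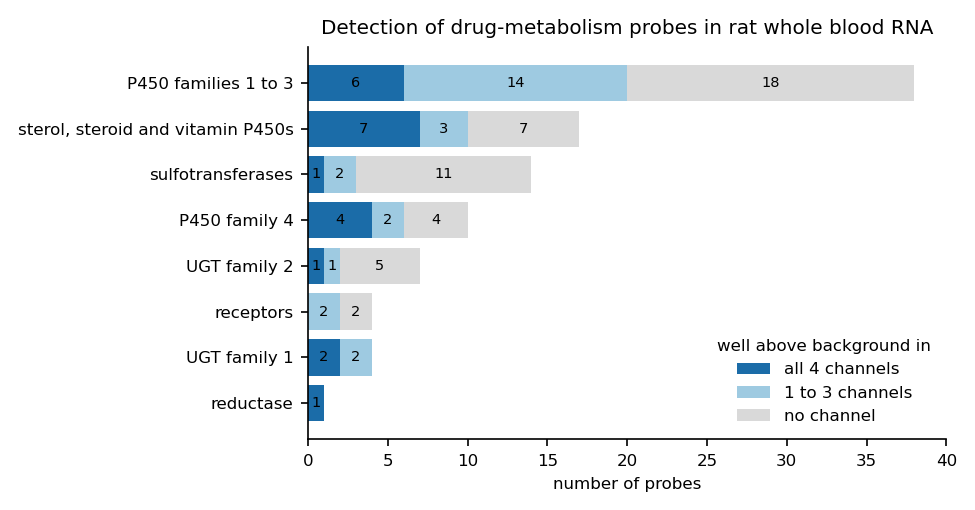
Number of probes (horizontal axis) in each functional group, split by whether the probe was well above background in all 4 channels, in 1 to 3 or in none. The steroid and vitamin group, which holds all P450 families beyond family 4, had 7 of 17 probes in all 4 channels. The sulfotransferases had 1 of 14.

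The promoters of 67 of the 81 genes were found in the RefSeq promoter table of GRCr8, as 300 bases that run from 250 bases before the gene's start to 50 bases after it. Members tended to hold few CG dinucleotides, with a median of 3 against 7 over all 27457 promoters of the table. The median was 5 for the 19 members whose gene passed in all 4 channels, 3 for the 21 members in 1 to 3 channels and 2 for the 27 members in none. Over all array genes the same classes had medians of 19, 12 and 6, so the order of the classes was the same and the members' median was the lower in each. At least 10 CG dinucleotides were found in 11 of the 67 member promoters (16.4%), against 44.1% of all promoters. The following 4 promoters are examples with at least 10 CG dinucleotides and with none. They belong to Por and Cyp4f6, which passed in all 4 channels, to Cyp2c11, which passed in all 4 channels with no CG in its promoter, and to its close relative Cyp2c12, which passed in none. Each is written 5′ to 3′ on the gene's own strand in GRCr8, and the capitals mark CG dinucleotides.
Por, chr12:26635760-26636059, minus strand: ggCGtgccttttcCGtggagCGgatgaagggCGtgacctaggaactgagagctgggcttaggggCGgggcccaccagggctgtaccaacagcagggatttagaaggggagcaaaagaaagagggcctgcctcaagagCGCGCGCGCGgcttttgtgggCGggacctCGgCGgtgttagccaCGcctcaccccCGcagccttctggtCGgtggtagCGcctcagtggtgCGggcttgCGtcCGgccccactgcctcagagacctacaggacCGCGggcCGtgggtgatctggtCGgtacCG
Cyp4f6, chr7:12708329-12708628, minus strand: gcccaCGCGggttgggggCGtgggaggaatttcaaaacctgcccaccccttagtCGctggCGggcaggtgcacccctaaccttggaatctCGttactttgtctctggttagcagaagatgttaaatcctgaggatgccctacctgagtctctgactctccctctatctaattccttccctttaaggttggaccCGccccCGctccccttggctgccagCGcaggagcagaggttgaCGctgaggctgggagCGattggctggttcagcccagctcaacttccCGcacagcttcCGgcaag
Cyp2c11, chr1:246174966-246175265, plus strand: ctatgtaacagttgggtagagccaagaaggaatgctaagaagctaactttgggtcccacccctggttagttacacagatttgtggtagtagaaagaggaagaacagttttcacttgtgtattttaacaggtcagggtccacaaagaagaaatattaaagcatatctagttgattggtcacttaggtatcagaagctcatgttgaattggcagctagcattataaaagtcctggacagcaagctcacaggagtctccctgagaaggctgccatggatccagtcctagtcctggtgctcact
Cyp2c12, chr1:248676985-248677284, minus strand: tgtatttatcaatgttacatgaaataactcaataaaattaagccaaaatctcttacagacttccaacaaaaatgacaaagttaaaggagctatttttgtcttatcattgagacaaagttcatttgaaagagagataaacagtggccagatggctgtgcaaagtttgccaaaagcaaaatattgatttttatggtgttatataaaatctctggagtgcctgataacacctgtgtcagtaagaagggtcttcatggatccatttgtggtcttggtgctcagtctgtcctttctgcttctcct
The Por window held 25 CG dinucleotides and the Cyp4f6 window held 13, whereas the Cyp2c11 and Cyp2c12 windows held 0. The largest number, 37, was in the Ahr promoter, whose gene reached 3 channels. The letters GCGTG, the core of the element that Ahr binds, were searched on both strands and each match contains a CG. They were present in 13 of the 67 member promoters (19.4%) and in 31.1% of all promoters. The letters TATAAA, searched on both strands, were present in 20 member promoters (29.9%) and in 14.3% of all promoters. Both are counts of letters in this window and not of bound sites.

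**Figure D2:**
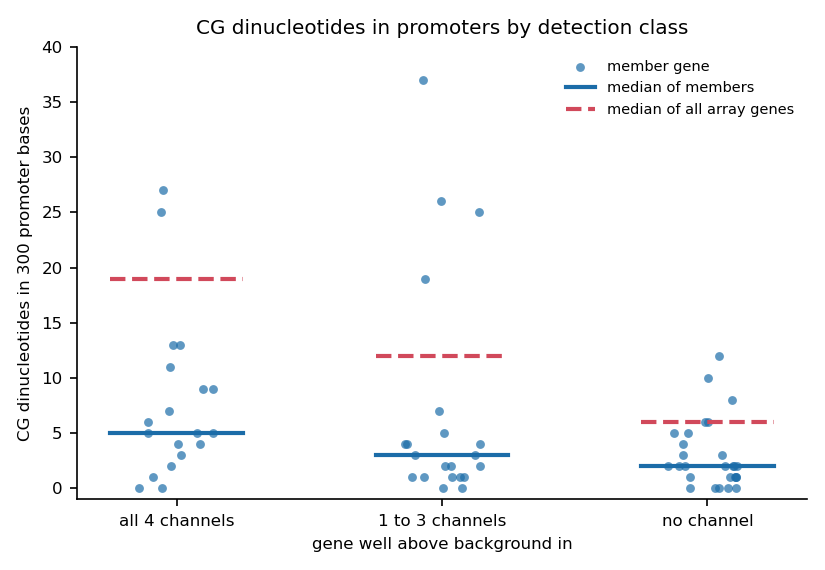
Number of CG dinucleotides in the 300 promoter bases (vertical axis) of 67 member genes, grouped by detection in blood RNA. Points are genes, solid lines the medians of the members (5, 3 and 2) and dashed lines the medians of all array genes in the same class (19, 12 and 6).

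Between the pools, no member passed a mean fold of 1.5 with the same direction on both arrays. Of the 22 probes measured in all 4 channels, 0 were higher in the LO pool by this rule, against 0.0195% of all such probes, and 0 were lower, against 0.0715%. The members' LO/control ratios, as the geometric mean of the arrays, ran from 0.766 for Cyp3a18 to 1.25 for Cyp2t1, with a median of 1.03. The median log2 ratio was 0.038 (SD between the 22 probes 0.16), and it was -0.059 with median centring, a scaling that put the median of all such probes at -0.074. Over all 15386 probes in 4 channels it was -0.0026 (SD 0.12). The direction was the same on both arrays in 9 of the 22 members (40.9%), higher in the LO pool in 5 and lower in 4, whereas 24.4% of all such probes kept their direction. The software's error of a single ratio ranged from 0.204 to 0.388 on the log2 scale among the 22 probes, with a median of 0.245.

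**Figure D3:**
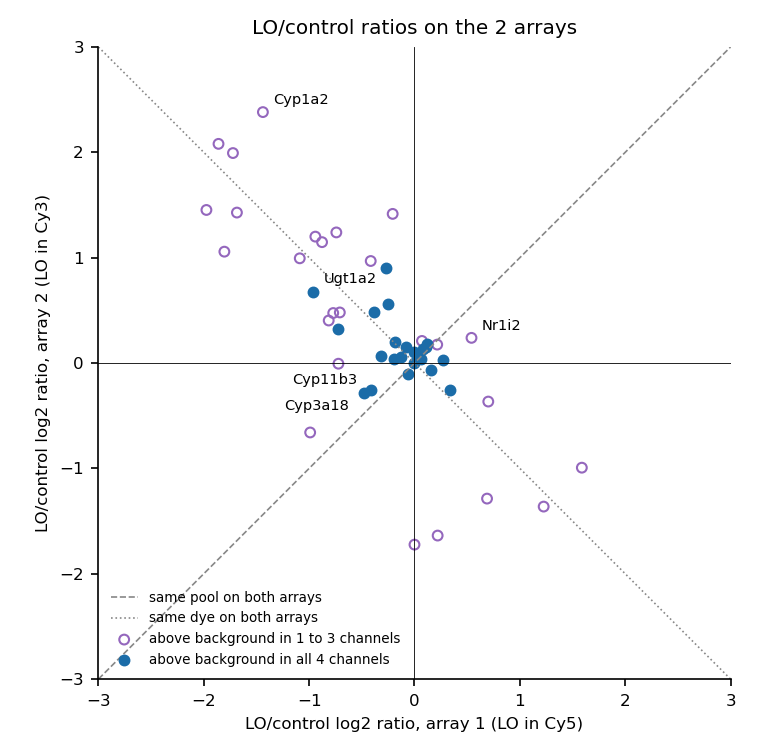
LO/control log2 ratio on array 1 (horizontal axis) against array 2 (vertical axis) for the 22 probes in all 4 channels (filled) and the 26 probes in 1 to 3 channels (open). Points near the dashed line follow the RNA pool and points near the dotted line follow the dye. Of the 26 open points, 20 changed direction between the arrays, and this share was not computed for all probes in 1 to 3 channels.

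Ratios varied more with the dye than with the pool. Across the 22 members the dye part of the log2 ratio, taken as the mean of the Cy5 over Cy3 log2 values of both arrays, showed a log2 SD of 0.26. The dye part was larger than the pool's part in 13 of the 22 members, those whose ratio changed direction between the arrays. Over all 15386 probes this was so in 11639. Turned to LO over control, array 1 and array 2 had a Pearson r of -0.43 over the 22 log2 ratios and -0.70 over all 15386 probes. These values describe probes that share both arrays and both pools. In 11 of the 13 members that changed direction the Cy3 channel was the brighter on both arrays, and in 2 it was the Cy5 channel. Over all 15386 probes, Cy3 was the brighter on both arrays in 5609 and Cy5 in 6030. The dye part passed 1.5-fold in 1 member (4.55%), a probe of Ugt1a2, against 6.46% of all such probes.

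Por, the reductase that serves the microsomal P450s, gave nearly equal signals in both pools. Its processed signal was 228 in the LO pool and 228 in the control pool on array 1, and 257 and 258 on array 2. The LO/control ratios were 0.997 and 0.999, the closest to equality of any member in all 4 channels.

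Of the P450 families 1 to 3, which handle most drugs and plant compounds, 6 of 38 probes passed in all 4 channels, 14 in some and 18 in none. Cyp2c11, the main male-specific P450 of rat liver, gave 586 in the LO pool and 553 in the control pool on array 1, and 611 and 556 on array 2. The LO value was the brighter each time, with ratios of 1.06 and 1.099, a difference within the software's error of 0.21 on the log2 scale. Cyp2b12, a P450 described in skin glands that oxidises arachidonic acid, gave 1195 and 1072 on array 1 and 1103 and 1157 on array 2. Its ratios of 1.11 and 0.954 point opposite ways. The Cyp2c, Cyp2d and Cyp4a genes have close relatives, and the files do not hold the probe sequences, so their probes could also have bound transcripts of a relative.

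Cyp3a18, a liver P450 of the family that oxidises many drugs and steroids, had the lowest mean ratio of the 22 probes. It gave 72.3 in the LO pool and 101.1 in the control pool on array 1, and 75.6 and 92.2 on array 2. Both LO values lay below both control values. The ratios were 0.716 and 0.820, with a mean log2 ratio of -0.38, while the software's error was 0.38 and 0.37. The mean log2 ratio was -0.37 with median centring and -0.078 with normexp background correction and loess. The normexp step adds an offset of 50 to each signal, which brings the ratios of dim probes closer to equality. The 4 signals of Cyp3a18 were close to the lowest signals rated well above background, which were 50.2 to 54.9 depending on the channel.

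Cyp2t1 had the highest mean ratio, but its arrays disagreed. It gave 108 and 130 for the LO and control pools on array 1, and 156 and 83.6 on array 2, so that the Cy3 channel was the brighter both times. The ratios were 0.831 and 1.87. Cyp2d3, of the family that oxidises many basic drugs, followed the same dye. It gave 313 and 409 on array 1 and 367 and 261 on array 2. The first probe of Cyp2d4 gave 478 and 395 on array 1 and 383 and 375 on array 2, and thus a higher LO value on both arrays. Its log2 ratios were 0.28 and 0.031, with a mean of 0.15 and a software error of 0.21 on each array. A second probe of Cyp2d4 gave 121, 74.3, 103 and 132 in the same order, was not above background for the control pool on array 1, and turned direction between the arrays.

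P450 family 4 hydroxylates fatty acids and eicosanoids at the end of the chain, and 4 of its 10 probes passed in all 4 channels. Cyp4f6, whose relatives inactivate leukotriene B4 in neutrophils, gave 10550 in the LO pool and 10610 in the control pool on array 1, and 10346 and 9595 on array 2. Its ratios were 0.994 and 1.08. Cyp4a2 gave 1885 and 2059 on array 1 and 1576 and 1520 on array 2, with ratios of 0.916 and 1.04. Both genes were thus measured far above background and differed by less than 10% between the pools on each array.

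Cyp4a1 gave 189 and 197 for the LO and control pools on array 1, and 176 and 189 on array 2. The LO value was slightly the lower each time, with a mean log2 ratio of -0.082 and a software error of 0.24 or more. The mean log2 ratio was -0.11 with median centring and had the opposite sign (0.028) after normexp and loess. Cyp4f5 gave 113 and 89.8 on array 1 and 94.4 and 113 on array 2, with the Cy5 channel the brighter both times. No channel was above background for Cyp4a3, Cyp4b1, Cyp4f4 and Cyp4x1.

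**Figure D4:**
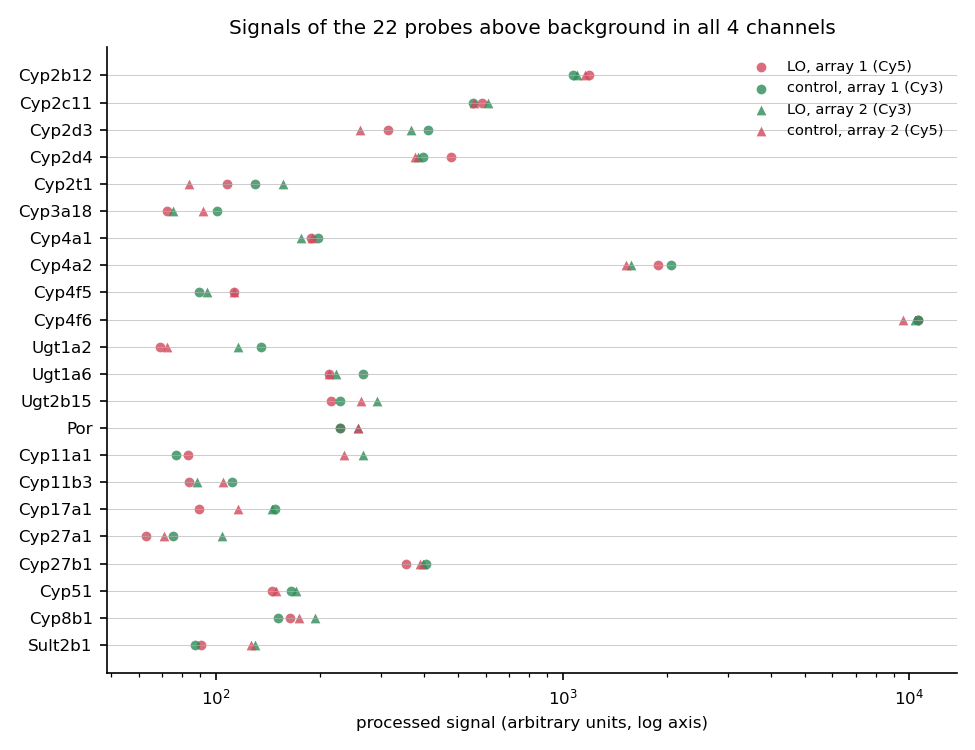
Processed signal on a log axis of each of the 22 probes in all 4 channels, with circles for array 1, triangles for array 2, red for Cy5 and green for Cy3. Signals may be compared along a row only. Por, Cyp2c11 and Cyp4f6 show 4 close values, and Cyp11a1 shows 2 close pairs, 1 for each array.

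All P450 families beyond family 4 were placed in 1 group, mainly enzymes of sterol, steroid, bile acid, retinoic acid and vitamin D metabolism. This group, which also holds Cyp20a1, had 7 of 17 probes in all 4 channels. Cyp51, which removes a methyl group from lanosterol on the way to cholesterol, gave 145 and 165 for the LO and control pools on array 1, and 171 and 149 on array 2. Cyp27b1, which makes the active vitamin D hormone and is known from kidney and macrophages, gave 353 and 403 on array 1 and 397 and 387 on array 2. Their mean log2 ratios were 0.0053 and -0.078, and for both genes the direction turned with the dye.

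Cyp27a1, a sterol hydroxylase of bile acid synthesis, gave 62.9 and 75.1 on array 1 and 104 and 70.9 on array 2. Cyp8b1, which sets the share of cholic acid among bile acids, gave 164 and 152 on array 1 and 193 and 174 on array 2. For Cyp8b1 the LO value was the higher both times, with ratios of 1.08 and 1.11. Its log2 ratios of 0.11 and 0.15 were smaller than the software errors of 0.28 and 0.25. Cyp27a1 was the brighter in Cy3 both times. Cyp7a1, the rate-limiting enzyme of bile acid synthesis, was above background in no channel.

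Cyp11b3, an adrenal P450 of the family that hydroxylates corticosteroids, was the other member in all 4 channels with a mean past 1.2-fold and the same direction on both arrays. It gave 83.8 and 111 for the LO and control pools on array 1, and 88.1 and 105 on array 2. Both LO values were below both control values, and the mean log2 ratio was -0.33 with a software error of 0.33 on each array. It was -0.33 with median centring and -0.17 with normexp and loess, which include the offset of 50. Cyp17a1, needed for sex steroids, gave 89.7 and 148 on array 1 and 145 and 116 on array 2, a pattern of the dye.

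Cyp11a1, which starts steroid synthesis from cholesterol, differed more between the arrays than between the pools. It gave 83.4 and 76.8 for the LO and control pools on array 1, but 266 and 234 on array 2. The signal was 3.19-fold higher on array 2 in the LO pool and 3.05-fold higher in the control pool. Of the 22 members this was the 1 (4.55%) in which both pools were over 2-fold apart between the arrays, against 0.357% of all probes in 4 channels, a limit set after the values of Cyp11a1 were seen. The LO/control ratios were close, at 1.09 and 1.14, but with median centring the mean log2 ratio turned from 0.15 to -0.14.

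Among the family 1 glucuronosyltransferases, 2 of 4 probes passed in all 4 channels. Ugt1a6, which conjugates small phenols, gave 213 and 265 for the LO and control pools on array 1, and 222 and 212 on array 2. Ugt1a2 gave 69.2 and 135 on array 1 and 116 and 72.4 on array 2. The ratios of Ugt1a2 were thus 0.514 and 1.60, and its dye part was 1.77-fold. A second probe of Ugt1a2 gave 106, 65.5, 52.1 and 127, and it was above background in both Cy5 channels only. The probes of this 1 gene therefore followed opposite dyes. Ugt1a transcripts share their later exons, so that a probe there could not tell them apart.

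Ugt2b15, which conjugates steroids, was the family 2 member in all 4 channels. It gave 215 and 228 on array 1 and 292 and 262 on array 2, with ratios that turned with the dye. Sult2b1, which sulfates cholesterol and related sterols, was the single sulfotransferase in all 4 channels, and gave 90.8 and 87.2 on array 1 and 130 and 127 on array 2. Its ratios of 1.04 and 1.03 both lay above 1, by less than the software's log2 error of 0.28 or more, and the mean log2 ratio of 0.048 turned to -0.057 with median centring. Of the other 10 sulfotransferase genes, 2 reached 1 to 3 channels and 8 none.

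The receptors were close to background. Ahr, the receptor for dioxins and many plant compounds, gave 48.9 in the LO pool and 79.8 in the control pool on array 1, and 106 and 76.1 on array 2, and the first of these values was not above background. Nr1i2 gave 91.5 and 62.9 on array 1 and 111 and 93.8 on array 2, and its control value on array 1 was not above background. On both arrays the LO value of Nr1i2 was the brighter, with ratios of 1.46 and 1.18, but the log2 errors of 0.41 and 0.33 are of the same size as the log2 ratios of 0.54 and 0.24. Neither probe of Nr1i3 passed in any channel.

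Among the 26 probes above background in 1 to 3 channels, the channel that passed often went with the dye. In 7 probes (7.37%) it was both Cy3 channels alone, against 2.91% of all probes. These were both probes of Cyp1a2 and the probes of Cyp21a1, Cyp2c22, Cyp2c6v1, Sult1c2a and Ugt1a1. In 3 probes (3.16%), of Cyp20a1, Cyp2d2 and Ugt1a2, it was both Cy5 channels alone, against 3.5%. In 2 probes (2.11%), of Cyp2b21 and Cyp2d5, it was both channels of array 2, against 1.42%. These shares are of all 95 member probes and of all 41009 probes. Among the 8776 array probes in 1 to 3 channels, 1194 passed in both Cy3 channels alone and 1437 in both Cy5 channels alone, so such patterns were common over the array. A probe seen in 1 dye alone holds the LO pool on one array and the control pool on the other, and gives no fold between the pools.

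**Figure D5:**
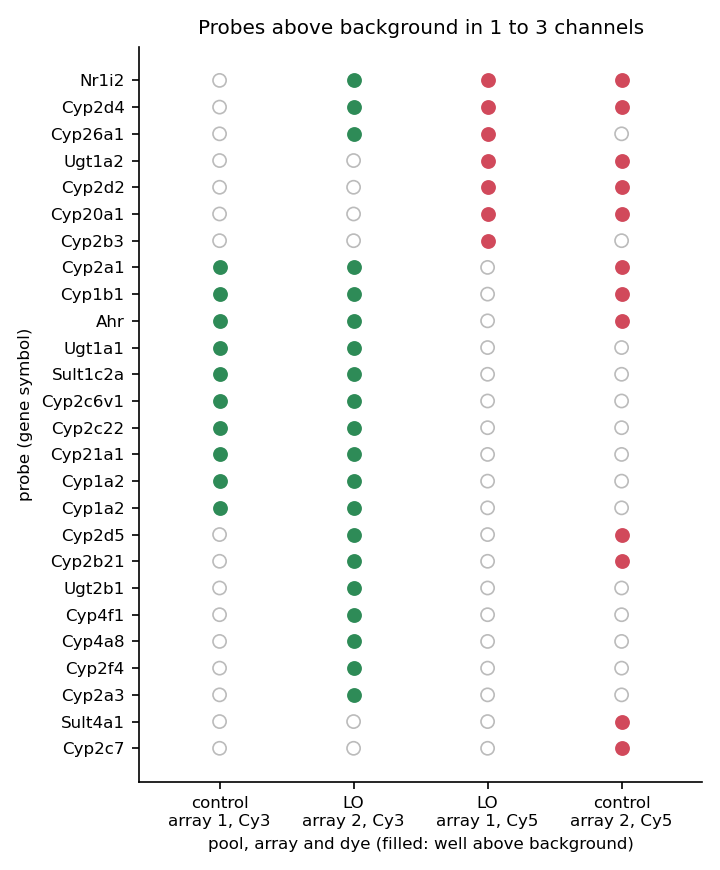
Channels (horizontal axis) in which each of the 26 probes in 1 to 3 channels was well above background, with filled green circles for Cy3, filled red circles for Cy5 and open circles for channels not above it. The 7 probes with both Cy3 columns alone filled include both probes of Cyp1a2.

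Cyp1a2, a liver enzyme that oxidises caffeine and is induced through Ahr, shows this pattern. Its first probe gave 30.5 and 82.8 for the LO and control pools on array 1, and 72.7 and 13.9 on array 2. The second probe gave 57.2 and 95.6, and 90.7 and 38.4. Both were high in Cy3 and low in Cy5. The methods describe selecting genes raised on the first array and lowered on the dye-swapped one, and state a software p threshold of 0.01. They do not say whether that threshold had to be met on 1 or on both arrays. With p under 0.01 required on both, 0 members passed towards the same pool, against 0.0219% of all probes, and 1 (1.05%), this first probe of Cyp1a2, passed towards the same dye, against 2.64%. Its software p-values, which come from an error model of the spot and not from replicates, were 0.0096 and 0.0025.

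Cyp26a1, which breaks down retinoic acid, was the 1 member (1.05%) above background in both LO channels alone, against 0.229% of all probes, and 0 members were so in both control channels alone, against 0.0658%. It gave 61.8 in the LO pool and 53.2 in the control pool on array 1, and 66.9 and 59.3 on array 2. Each LO value was the higher on its array, and all 4 values lay close to the lowest signals rated well above background. The log2 ratios of 0.22 and 0.18 were smaller than the software errors of 0.49 and 0.45, and since the control pool was dim on both arrays no fold is given.

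The brightest of the other partly detected probes were mixed. Cyp2a1, a steroid hydroxylase of rat liver, gave 61.1 and 108 for the LO and control pools on array 1, and 150 and 113 on array 2, and the first of these values was not above background. Cyp2b21 gave 29.8 and 49.1 on array 1 but 163 and 164 on array 2, equal pools on an array that was much brighter for this probe. A second Cyp2b21 probe was above background in no channel. Cyp21a1, which makes corticosteroids in the adrenal, gave 48.0 and 88.2 on array 1 and 110 and 49.7 on array 2. Ugt1a1, the bilirubin transferase, gave 23.95 and 83.7 on array 1 and 116 and 55.9 on array 2. Cyp2c6v1 gave 55.6 and 74.1, and 108 and 55.3, while Cyp2c22 gave 47.2 and 100, and 75.0 and 37.7. All of these except Cyp2b21 were brighter in Cy3 than in Cy5 on both arrays.

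The study listed 5 genes of these families as changed, and 2 of them, Cyp1b1 and Sult4a1, were among the members found here. The others on the study's list, Sult5a1, Cyp46a1 and Cyp2c55, were not matched to a named probe, so their signals were not read. That list was chosen on these samples and is not independent evidence of a direction. Cyp1b1, which oxidises polycyclic hydrocarbons and estrogens, gave 51.2 and 87.4 for the LO and control pools on array 1, and 94.8 and 68.2 on array 2. The first of these was not above background, and the direction turned with the dye. A second Cyp1b1 probe passed in no channel. Sult4a1, a sulfotransferase known from brain, gave 13.8 and 27.4 on array 1 and 46.2 and 73.0 on array 2. The control value was the higher both times, but the last value was the single one above background, and the limit of its fold was under 1.

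Of 18 main hepatic enzymes listed by name, 14 were found among the members. Cyp2b1, Cyp2b2, Cyp2d1 and Sult2a1 were not matched to a named probe, so their detection is unknown. Results for the 14 found follow. Cyp2c11, Cyp3a18 and Cyp4a1 passed in all 4 channels, and Cyp1a2, Ugt1a1 and Ugt2b1 passed in 1 or 2. The other 8, namely Cyp1a1, Cyp2c12, Cyp2e1, Cyp3a2, Cyp3a23-3a1, Cyp7a1, Sult1a1 and Sult1e1, passed in none. Cyp1a1, the enzyme most strongly induced through Ahr, and Cyp2e1, the ethanol-inducible P450, were each printed on 10 spots. Of these, 7 and 8 spots were usable, with single signals between 9.90 and 38.9 for Cyp1a1 and between 9.36 and 43.4 for Cyp2e1. None of these spots was above background in any channel, in either pool. Over all 47 member probes in no channel the signals ran from 8.92 to 67.1, and no fold is given for them.

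Genes that serve these enzymes without belonging to them were mostly measured. Of 33 listed electron carriers, cofactor enzymes, receptor partners and other handling enzymes, 27 were found. Of these, 23 passed in all 4 channels, 4 in fewer and 0 in none. Counted in the same way, 4546 of the 8898 named genes of the array passed in all 4 channels. The list was chosen by hand with earlier results of these data known. Among their 31 probes in 4 channels, 0 passed a mean fold of 1.5 in either direction and 3 followed the dye by more than that, beside the 0.0195%, 0.0715% and 6.46% of all such probes given above. The mean ratios ran from 0.834 for the soluble epoxide hydrolase Ephx2 to 1.37 for a probe of Rxrg, and the median log2 ratio was -0.033. Both extremes turned direction between the arrays, with ratios of 0.668 and 1.04 for Ephx2 and 0.971 and 1.94 for this Rxrg probe. The other Rxrg probe was much brighter and had a mean ratio of 0.977. Cyb5r3, the cytochrome b5 reductase, gave 2469 in the LO pool and 2648 in the control pool on array 1, and 2549 and 2584 on array 2. Arnt, the partner of Ahr, gave 57.7 and 87.8 on array 1 and 124 and 73.2 on array 2, and was thus the brighter in Cy3 on both arrays. Nqo1, another gene induced through Ahr, gave 78.6 and 114, and 159 and 87.1, with the same pattern.

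The tissue label was checked against marker genes. All 8 blood markers found of 13 listed, among them the red cell gene Hbb and the platelet gene Pf4, passed in all 4 channels, with mean ratios from 0.872 to 1.09. Their summed signal, most of it from red cell genes, was 2091940 in the LO pool and 1459270 in the control pool on array 1, and 1262120 and 1933260 on array 2, the Cy5 channel being the brighter both times. The red cell gene Alas2 had ratios of 2.02 and 0.437. Of 8 hepatocyte markers, 4 (Alb, Apob, Serpina1 and Tf) passed in all 4 channels through at least 1 probe, 2 in fewer and 2 (Ahsg and Ttr) in none. Their summed signal was 3489 in the LO pool and 3682 in the control pool on array 1, and 3675 and 3795 on array 2. Most of it came from 1 probe of Tf, which gave 2332, 2349, 2063 and 2570 in the same order. Of 4 heart muscle markers found of 6 listed, Actc1 passed in all 4 channels, Tnni3 and Tnnt2 in fewer and Myh6 in none. The summed signal of the heart muscle probes, most of it from Actc1, was 757 and 746 on array 1 and 691 and 733 on array 2. Both this sum and the hepatocyte sum include probes not above background. The part of liver or heart transcripts in the members' signals was not tested.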

How the data were processed

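The authors labelled the RNA pools with Cy3 and Cy5, hybridised them to Agilent rat arrays and processed the images with Agilent Feature Extraction 11.0.1.1. The deposited intensity values are processed signals after background subtraction and LOWESS dye normalization. The deposited log10 ratios are Cy5 over Cy3, with the software's error, and the deposited p-values come from its error model of each spot and are not adjusted. The authors' value table equalled the log10 ratio of the processed signals and was used as an alternative.

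Log ratios were expressed as log2 of LO over control. The 338 features with a non-uniformity or population outlier flag on either array were left out, and the spots of a probe were averaged. A channel was above background where the software rated most of a probe's usable spots so. No feature was saturated. Median processed signals were 53.6 and 55.6 (LO and control) on array 1 and 62.8 and 60.7 on array 2, and the number of arrays limits the precision. For members dim in 1 pool on both arrays, a limit on the fold was computed from signals after Aquantile normalization, raised to the lowest signal rated above background in each channel. Symbols came from GRCr8 RefSeq accessions and were found for 10767 probes. The genes named were all members in 4 channels, the 12 brightest in fewer channels, the receptors, listed hepatic enzymes and genes listed by the study. The members and lists were chosen with earlier results of these data known. The tools were R 4.3.3, limma 3.58.1 (normexp offset 50 on median signals) and Python 3.11.15 with matplotlib 3.10.9, numpy 2.4.6 and pandas 2.3.3.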

Additional observations from a re-analysis of the deposited data

How the results depend on the processing

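The 22 members in all 4 channels and the 48 in at least 1 became 51 and 83 with the software's weaker rating of a positive and significant signal (65.5% and 91.4% of all probes), and stayed at these numbers when flagged features were kept or dropped on their own array only. In the fold and dye counts that follow, each share is over all probes that passed the same filter. That filter was all 4 channels (22 members and 15386 probes in all) unless another is named. The count of 0 members past the fold between the pools became 2 at a limit of 1.2-fold (2.91%), namely Cyp3a18 and Cyp11b3, both lower in the LO pool. It became 5 with no filter on dim probes (3.27%), 2 with array 1 alone (7.6%) and 2 with array 2 alone (8.46%). Ugt1a2 was lower in the LO pool on array 1 alone and higher on array 2 alone. The 1 member that followed the dye became 6 at 1.2-fold (29.6%), 0 at 2-fold (0.559%) and 14 with 1 channel per array (21.1%). The count was 32 with no filter (28.3%), 0 with normexp and loess (0.149%) and 5 with median centring (19.6%). The median log2 ratio of the members moved from 0.038 to -0.10 with array 1 alone. Of 154 values of single members under the alternatives, 12 moved by more than the spread between the arrays, all under normexp and loess or median centring, where 6 moved each. Values from 1 array alone and the arithmetic mean of both ratios could not move by this rule, because they always lie within that spread. The value table and the kept flagged features gave nearly the main ratios again. This tally therefore does not measure stability. Ugt1a2, for example, had log2 ratios of -0.96 on array 1 and 0.68 on array 2 and did not count as moved. Median centring turned the mean log2 ratios of Cyp11a1 and Sult2b1, and normexp with loess turned those of Cyp4a1 and Sult2b1, among the members whose arrays had the same direction. No member passed the software p on both arrays towards the same pool under any threshold tried. Names from a gene name column were not tried, since the files hold no such column. No paired analysis was possible because the 2 arrays are 1 replicate. Weak signal over background limits the 73 probes outside the 4-channel class, and 1 pool per group leaves the spread between rats unmeasured.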
